A study of Mus musculus with 2 samples.

Results

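The mouse mitochondrial genome encodes 37 genes, and all 37 were found in the count tables by symbols that begin with mt- in GENCODE M21, out of 54446 genes. They comprise 13 mRNAs, 2 ribosomal RNAs (rRNAs) and 22 transfer RNAs (tRNAs). The samples were bone marrow derived macrophages of C57BL/6 mice, cells grown from marrow in culture, that were either untreated or given IL-36 gamma, an interleukin-1 family cytokine. How much cytokine was given, for how long, and how many animals the cultures came from was not given in the sources used here. A single library was made per condition, holding 17426367 gene counts for untreated cells (the control) and 17267900 for treated cells. Differences below are between these 2 libraries, without replicates and without a p-value.

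Mitochondrial DNA is copied into long RNAs from both of its strands. Most mRNAs, both rRNAs and most tRNAs lie on the transcript of the heavy strand, in which tRNAs separate the other genes. Nucleases cut at the tRNAs and so release the mRNAs and rRNAs between them. The mRNAs encode core subunits of the respiratory chain complexes and of ATP synthase, whose other subunits come from nuclear genes. The rRNAs and tRNAs serve only the translation of those mRNAs inside the organelle. In macrophages, respiration is known to differ between activation states.

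The identity of the cells was checked with marker lists. All 9 macrophage markers were measured, with a summed level of 29891 CPM (each count relative to the scaled total of its library) in untreated and 29700 CPM in treated cells. Single macrophage markers differed in both directions, with 3 of 9 intervals above 1 and 5 below. Over all genes averaging at least 10 counts, 20.2% of intervals lay above 1 and 16.5% below. Over those averaging at least 1000 counts, as the macrophage markers do, the shares were 44.3% and 22.9%. Markers of neutrophils summed to 257 and 312 CPM. Of the 8 measured, 6 had an interval above 1 and 1 below, with a median log2 ratio of 0.71: S100a9 had 676 counts in untreated and 1097 in treated cells (ratio 1.70), S100a8 844 and 1274 (1.58), and Ngp 639 and 938 (1.54), while Mmp8 had 1907 and 1205 (0.663). The markers of B cells summed to 22.8 and 29.3, of T cells to 13.2 and 7.56, and of fibroblasts to 12.0 and 6.91. Those of dendritic cells (1.13 and 1.30) and of erythroid cells (0.506 and 0.413) were near 0. At 0 in both libraries were 4 of 6 T cell markers, 3 of 6 erythroid, 2 of 6 dendritic cell and 2 of 6 fibroblast markers. The part of these differences in the results below was not tested.

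Mitochondrial genes differed in how much of their sequence also occurs in annotated nuclear genes. Nuclear chromosomes hold inserted copies of mitochondrial DNA, and a read that matches a copy as well as the original has no single position. The counter set aside 2611070 reads of the untreated and 2659848 of the treated library with more than 1 alignment. How many of them came from mitochondrial RNA was not analysed here. In the GENCODE M21 transcript sequences, 10 of the 37 genes shared at least 1 stretch of 50 bases with an annotated nuclear gene of the count table, 14 such genes in all. Of these, 7 lie side by side on mouse chromosome 1 (chr1:24611535-24616197, mm10) in the order of their mitochondrial originals, at an offset that varies by 1 base. Together they span the bases chrM:6381-11042, which hold 6 whole mRNA genes and 5 whole tRNA genes and parts of mt-Co1 and mt-Nd4.

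The copies on chromosome 1 hardly differ from the originals. The pseudogene Gm28661 matches 681 bases of mt-Co2 with 0 differences, Gm10925 matches 678 bases of mt-Atp6 with 0, and Gm28437 matches 783 bases of mt-Co3 with 0. Gm28439 matches the first 876 bases of mt-Nd4, and Gm10222 matches 294 bases of mt-Nd4l, also with 0 differences. Gm28438 differs from mt-Nd3 at 1 of 345 bases, T3C counted from the first base of the gene. The starts of mt-Co2 and mt-Nd3 and of their copies, 5′ to 3′, are shown for how alike they are: the first pair is identical, and in the second a single base, in capitals, differs.
mt-Co2, chrM:7013-7092, plus strand: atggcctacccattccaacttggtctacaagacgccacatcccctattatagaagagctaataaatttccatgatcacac
Gm28661, chr1:24615486-24615565, minus strand: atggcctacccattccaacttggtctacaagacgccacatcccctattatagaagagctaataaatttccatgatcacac
mt-Nd3, chrM:9459-9538, plus strand: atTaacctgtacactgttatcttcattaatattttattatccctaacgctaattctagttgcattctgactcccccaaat
Gm28438, chr1:24613040-24613119, minus strand: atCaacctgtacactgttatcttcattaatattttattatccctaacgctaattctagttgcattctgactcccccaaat

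In mt-Co1 the copy begins inside the gene. Gm29216 aligns with bases 1054 to 1545 of mt-Co1, and its 6 differences (T1056A, C1057T, A1059G, A1060G, C1062A and A1066T) all lie within its first bases. A pseudogene on chromosome 2, Gm13340, spans all 1545 bases of mt-Co1 with 37 differences, of which C54A, A60G and G87A fall in the stretch shown. The first pair below is the edge of the chromosome 1 copy, and the second is a stretch in which scattered differences tell the gene from its copy.
mt-Co1, chrM:6381-6460, plus strand: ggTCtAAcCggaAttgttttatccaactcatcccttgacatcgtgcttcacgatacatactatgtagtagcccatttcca
Gm29216, chr1:24616118-24616197, minus strand: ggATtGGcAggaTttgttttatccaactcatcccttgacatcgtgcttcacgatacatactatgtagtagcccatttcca
mt-Co1, chrM:5368-5447, plus strand: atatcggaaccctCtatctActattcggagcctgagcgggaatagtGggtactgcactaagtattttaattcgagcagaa
Gm13340, chr2:22589528-22589607, minus strand: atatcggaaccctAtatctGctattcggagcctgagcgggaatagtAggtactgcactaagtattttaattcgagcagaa

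Counts per kb (the count divided by the gene's length) were low where such a copy covered nearly all of a gene. In the 5 mRNAs with over 90% of their 50-base windows in an annotated copy, counts per kb ran from 0 to 239.8 in untreated and from 6.73 to 200.3 in treated cells. These were mt-Co2, mt-Co3, mt-Atp6, mt-Nd3 and mt-Nd4l. In the 6 mRNAs with under 10% of windows in a copy, the range was 0 to 17301 in untreated and 0 to 16712 in treated cells. These ranges overlap those of the first group, since mt-Atp8 had 0 counts. With mt-Atp8 left out because of its 0 counts, the other 5 ran from 7459 to 17301 and from 5078 to 16712. mt-Co1, with 51.1% of its windows in a copy, still had the highest density, 94285 and 80350 counts per kb, and mt-Nd4, with 62.2%, had 5702 and 4523. The mRNA mt-Atp8 (chrM:7766-7969) had 0 counts in both libraries. It lies between mt-Co2 and mt-Atp6 within the bases spanned by the chromosome 1 copies, but none of its 50-base windows occurs in an annotated copy. Its end overlaps mt-Atp6, which starts at base 7927 and is matched by Gm10925 from its first base. What share of the RNA of mt-Atp8 and of the 5 mRNAs with over 90% of windows in a copy was counted was not tested. Their levels are not compared with those of other genes below. The 7 pseudogenes of the block received 143 and 108 counts in all.

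**Figure D1:**
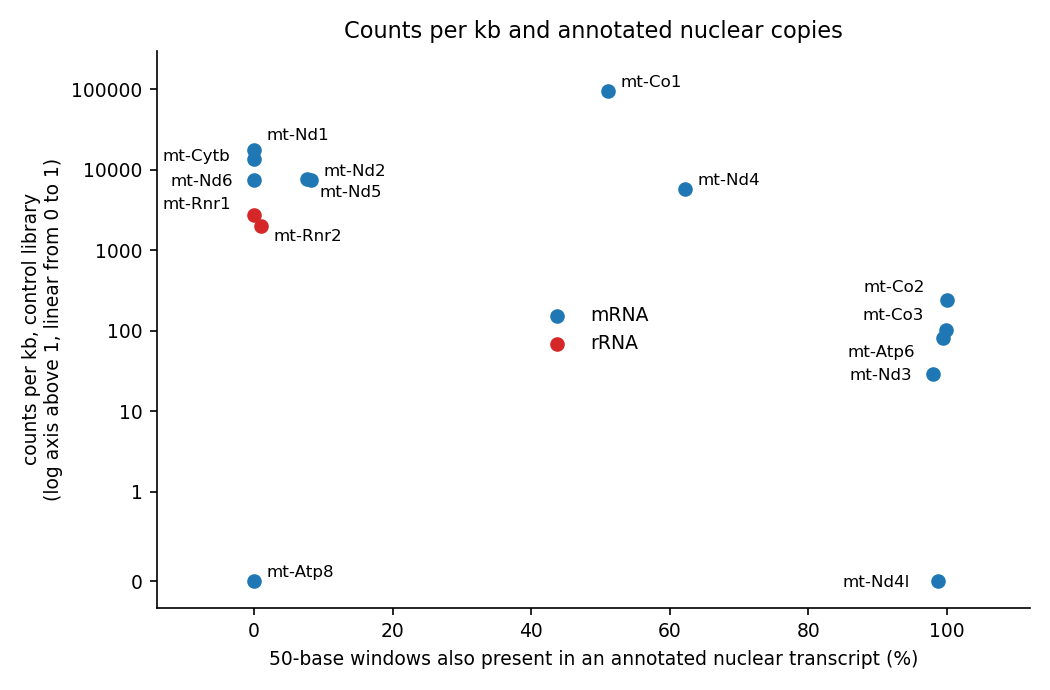
Counts per kb in the control library (vertical axis, logarithmic above 1 and linear from 0 to 1) against the percentage of 50-base windows that also occur in an annotated nuclear transcript, for the 13 mRNAs (blue) and 2 rRNAs (red). The 5 mRNAs at the right, all above 97%, lie at or below 239.8 counts per kb. The mRNA mt-Atp8 lies at 0 counts per kb and 0% of windows.

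All mitochondrially encoded genes together took 217757 counts in untreated and 186628 in treated cells, which is 1.25% and 1.08% of the gene counts. The mRNAs made up 97.1% of these counts in untreated and 95.7% in treated cells. The rRNAs took 2.65% (95% exact interval 2.58 to 2.72) and 4.10% (4.02 to 4.20), and the tRNAs 0.211% (0.192 to 0.231) and 0.197% (0.178 to 0.218). Intervals and floors here and below cover counting error only. The rRNA share was thus higher in treated cells by more than counting error, while the tRNA shares overlapped. mt-Co1 alone accounted for 66.9% and 66.5% of the mitochondrial counts and was the ninth gene (rank 9) by count in both libraries. All these shares are of counted reads. The 6 mRNAs within the span of the chromosome 1 copies hold only 308 counts in untreated and 251 in treated cells. Whether part of their RNA went uncounted was not tested, so the shares do not give the composition of mitochondrial RNA.

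**Figure D2:**
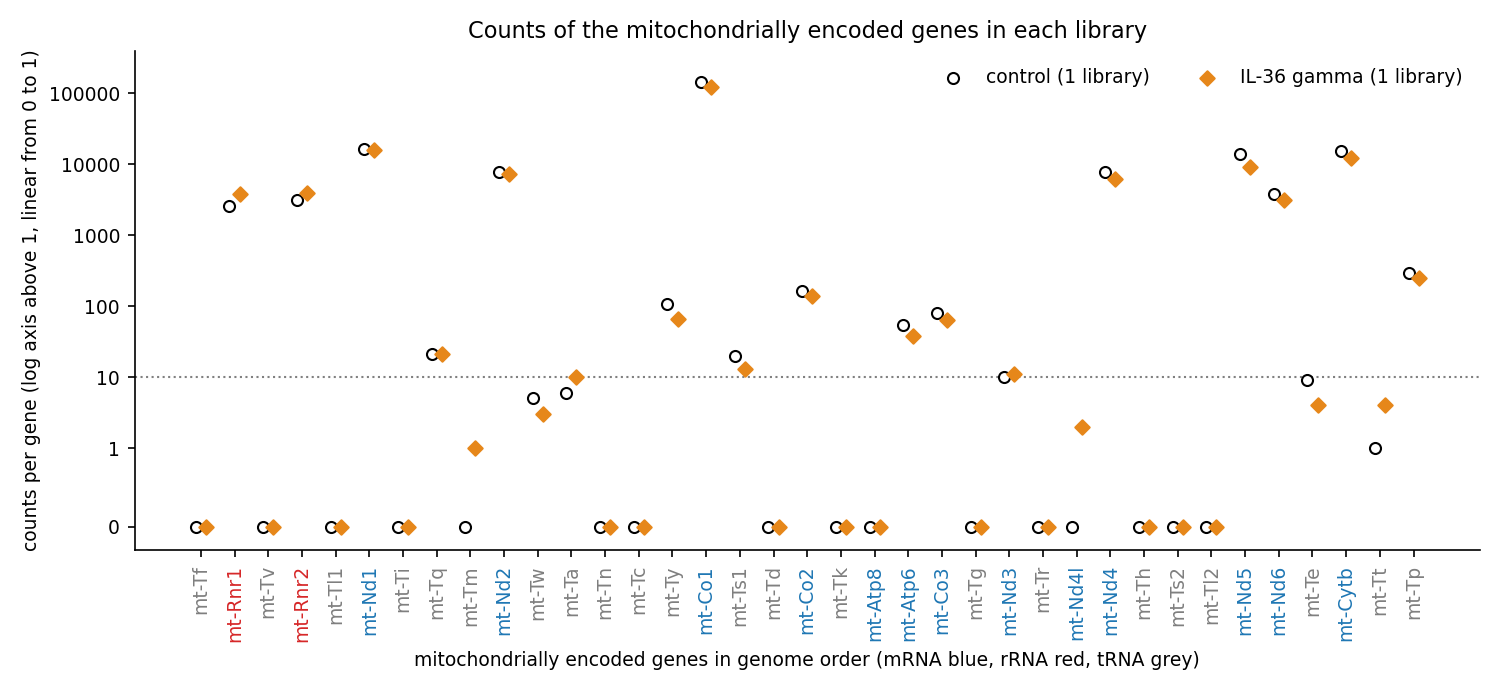
Counts of the 37 mitochondrially encoded genes in genome order in the control library (open circles) and the IL-36 gamma library (orange diamonds); the vertical axis is logarithmic above 1 and linear from 0 to 1, and the dotted line is the mean count of 10 needed for a ratio. mt-Co1 stands highest at 145671 and 124141, and 14 genes are at 0 in both libraries.

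Ratios are IL-36 gamma over control after TMM scaling, with an exact 95% Clopper-Pearson interval, and were formed for the 17 of 37 genes averaging at least 10 counts. The 3 classes did not move alike. The rRNAs pooled had 5765 counts in untreated and 7661 in treated cells, a ratio of 1.39 (1.35 to 1.44). The mRNAs pooled had 211532 and 178599, a ratio of 0.886 (0.881 to 0.892). The tRNAs pooled had 460 and 368, a ratio of 0.840 (0.730 to 0.965). The change of the rRNAs was 1.57 times that of the mRNAs (1.52 to 1.63, interval from a normal approximation on the log scale). No common scaling of a library can alter this value. It does depend on how RNA was selected in each of the 2 libraries, and that part was not tested. In bulk RNA, fewer cells of a type and less RNA per cell cannot be told apart.

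Both rRNAs were higher in treated cells. mt-Rnr1, the RNA of the small mitochondrial ribosomal subunit (ENSMUSG00000064337, chrM:70-1024, mm10), had 2621 counts in untreated and 3771 in treated cells, a ratio of 1.51 (1.44 to 1.59). mt-Rnr2, that of the large subunit (ENSMUSG00000064339, chrM:1094-2675), had 3144 and 3890, a ratio of 1.30 (1.24 to 1.36). Per kb, mt-Rnr1 had 2745 and 3949 counts and mt-Rnr2 had 1987 and 2459. These levels lay below those of neighbouring mRNAs such as mt-Nd1, with 17301 and 16712 counts per kb. Whether polyadenylated RNA was selected, or ribosomal RNA removed, was not given in the sources used here, so the level of rRNA relative to mRNA describes these libraries and not the cells. Of all 14379 genes averaging at least 10 counts, 20.2% had an interval wholly above 1. Among the 3455 genes averaging at least 1000 counts it was 44.3%, and 14 of these had a higher ratio than mt-Rnr1 and 113 a higher ratio than mt-Rnr2.

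Of 11 measured mRNAs, 5 had an interval entirely under 1 and 0 entirely over it, against 16.5% of all measured genes below 1 and 20.2% above. All 5 were among the 7 mRNAs with at least 1000 counts in each library, and of all genes averaging at least 1000 counts, 22.9% lay below 1. The median log2 ratio of the measured mRNAs was -0.23, against 0.01 for all measured genes and 0.06 for those averaging at least 1000 counts. No mitochondrially encoded gene had an interval beyond 2-fold, and of all measured genes 0.0765% lay wholly above 2 and 0.0904% wholly below 0.5.

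The mRNAs of complex I, the enzyme through which NADH feeds electrons into the chain, were spread from a ratio near 1 to the lowest of the well counted mRNAs. mt-Nd1 had 16557 counts in untreated and 15993 in treated cells (1.01, 0.992 to 1.04), and mt-Nd2 had 7761 and 7427 (1.004, 0.973 to 1.04). mt-Nd4 had 7858 and 6233 (0.833, 0.805 to 0.861) and mt-Nd5 (ENSMUSG00000064367, chrM:11742-13565) had 14054 and 9263 (0.692, 0.674 to 0.710). mt-Nd6, the only mRNA on the transcript of the light strand (ENSMUSG00000064368, chrM:13552-14070), had 3871 and 3140 (0.851, 0.812 to 0.893). The intervals of mt-Nd1 and mt-Nd2 overlapped each other and included 1, and the side on which they lay changed with the processing. By total counts their ratios were 0.975 and 0.966 and with the trend of ratios on exon length removed 0.948 and 0.936, with intervals below 1. With the trend on GC content removed they were 1.07 and 1.06, with intervals above 1. The interval of mt-Nd5 lay below those of all other mRNAs with at least 1000 counts: 36 of the 3455 well counted genes had a lower ratio. mt-Nd3 had 10 and 11 counts (1.15, 0.445 to 3.03), and mt-Nd4l had 0 and 2, too few for a ratio.

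mt-Cytb (ENSMUSG00000064370, chrM:14145-15288) encodes cytochrome b, the only subunit of complex III made in mitochondria. It had 15452 counts in untreated and 12151 in treated cells, a ratio of 0.825 (0.806 to 0.845). Of the catalytic subunits of complex IV, cytochrome c oxidase, mt-Co1 (ENSMUSG00000064351, chrM:5328-6872) had 145671 and 124141 counts, a ratio of 0.894 (0.888 to 0.901). mt-Co2 had 164 and 137 (0.877, 0.694 to 1.11) and mt-Co3 had 79 and 63 (0.837, 0.591 to 1.18). For ATP synthase, mt-Atp6, part of the proton channel, had 55 and 38 (0.725, 0.467 to 1.12). The last 3 have intervals that include 1 and are among the genes covered by copies. A difference the size of that in mt-Co1 was not detectable at their depth.

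**Figure D3:**
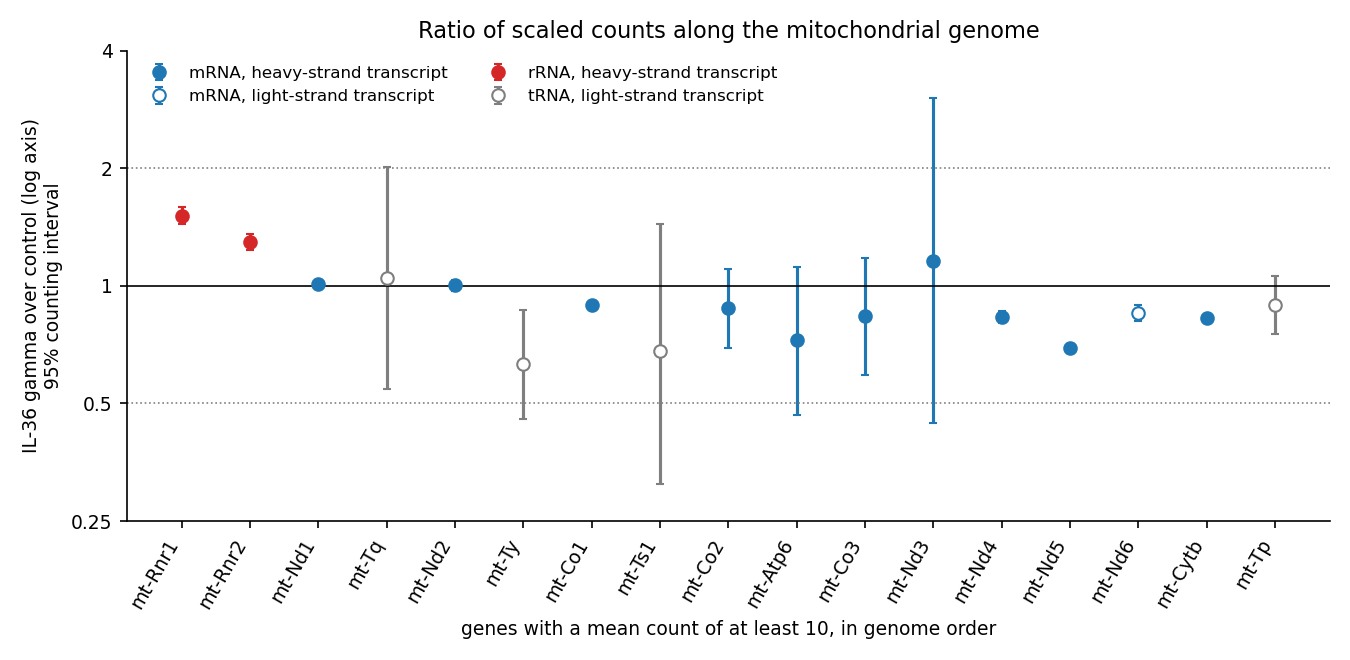
Ratio of scaled counts, IL-36 gamma over control (logarithmic axis), with its 95% counting interval for the 17 genes averaging at least 10 counts, in genome order; filled symbols are heavy-strand and open symbols light-strand transcripts, and dotted lines mark 0.5 and 2. The rRNAs lie above 1, mt-Nd1 and mt-Nd2 near 1, and mt-Co1, mt-Nd4, mt-Nd5, mt-Nd6 and mt-Cytb below 1.

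Among the 8 heavy-strand genes with at least 1000 counts in each library, the ratio was lower the later the gene stood on the genome, with 1 exception, since mt-Cytb (0.825), the last, lay above mt-Nd5 (0.692). The intervals of mt-Nd1 and mt-Nd2 overlapped, as did those of mt-Nd4 and mt-Cytb. Across these genes the log2 ratio and the start position had a Spearman correlation of -0.976 and a Pearson correlation of -0.872. Among the 6 mRNAs alone the values were -0.943 and -0.826. These are descriptions over genes that share a transcript and both libraries. Length went with the ratio as well: Pearson -0.478 over the 8 genes and -0.838 over the 6 mRNAs, mt-Nd5 being the longest at 1824 bases. For GC content the values were -0.464 and -0.0662. Across all measured genes too, the median log2 ratio varied with exon length, from 0.13 in the second of 10 groups ordered by length to -0.16 in the longest. With that trend removed, the ratios were 1.41 for mt-Rnr1, 1.20 for mt-Rnr2, 0.948 for mt-Nd1 and 0.936 for mt-Nd2. Further along the genome they were 0.826 for mt-Co1, 0.769 for mt-Nd4, 0.640 for mt-Nd5 and 0.766 for mt-Cytb, the same order of genes. With the trend on mean expression removed instead, mt-Nd1 (0.926) lay below mt-Nd2 (0.933), with overlapping intervals. The standard deviation of the log2 ratios was 0.19 over the 7 mRNAs with at least 1000 counts in each library and 0.35 with the 2 rRNAs added, against 0.21 over all 3455 genes averaging at least 1000 counts. The mRNAs were thus spread about as widely as other well counted genes.

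Of the 22 tRNAs, 13 had 0 counts in both libraries and 4 had a mean count of at least 10. All 4 lie on the light-strand transcript, which carries 8 of the tRNAs: these 8 had 454 counts in untreated and 360 in treated cells, and the 14 heavy-strand tRNAs had 6 and 8. Counts went with the spacing of genes, a split chosen after the values were seen. The 8 tRNAs with a gene of the same strand within 30 bases on both sides all had 0 counts. The 11 with such a neighbour on 1 side had 129 and 87 in all, of which mt-Ty had 108 and 65. The 3 with none, mt-Tq, mt-Ts1 and mt-Tp, had 331 and 281, of which mt-Tp had 290 and 247. Spacing went with strand. The 8 with neighbours on both sides are all on the heavy-strand transcript and the 3 with none all on the light-strand transcript. Between these groups spacing and strand cannot be told apart. The 11 with a neighbour on 1 side lie on both strands. Those on the heavy-strand transcript held its 6 and 8 counts. Of those on the light-strand transcript, mt-Ty held most counts, and mt-Tn and mt-Tc had 0. The part of strand was not tested. The 5 tRNA genes within the span of the chromosome 1 copies had 20 counts in untreated and 13 in treated cells, all in mt-Ts1. Of the 8 tRNAs with neighbours on both sides, mt-Tk, mt-Tg and mt-Tr lie there. Whether an unannotated copy covers these genes was not tested. The counter set aside 1.79% and 1.84% of the reads as ambiguous between genes. Its settings, strand included, were not given in the sources used here, so counts of tRNAs and of mt-Nd6 may hold reads from the RNA of the opposite strand. The tRNAs are 59 to 75 bases long, and their counts are not a measure of mature tRNA.

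The 4 tRNAs with enough counts are shown because they carry nearly all tRNA counts, and their letters, from the GENCODE M21 transcript sequences (minus strand, mm10), show which codons they read. Capitals mark the anticodon, found as the middle of a loop of 7 bases closed by a stem of 5 pairs.
mt-Tp, for proline, chrM:15356-15422: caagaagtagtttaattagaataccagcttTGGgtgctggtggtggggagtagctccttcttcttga
mt-Ty, for tyrosine, chrM:5260-5326: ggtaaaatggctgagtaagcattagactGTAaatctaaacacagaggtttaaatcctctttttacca
mt-Tq, for glutamine, chrM:3772-3842: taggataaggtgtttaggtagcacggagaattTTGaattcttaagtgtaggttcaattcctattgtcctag
mt-Ts1, for serine, chrM:6870-6938: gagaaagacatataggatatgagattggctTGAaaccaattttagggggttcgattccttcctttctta

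mt-Tp had 290 counts in untreated and 247 in treated cells, a ratio of 0.894 (0.751 to 1.06). mt-Ty had 108 and 65, a ratio of 0.632 (0.457 to 0.867), the only measured tRNA with an interval off 1. mt-Tq had 21 and 21 (1.05, 0.545 to 2.02) and mt-Ts1 had 20 and 13 (0.682, 0.312 to 1.44). The low counts leave wide intervals, so that 1 of 4 below 1 is not far from the 16.5% of all measured genes. The other 5 tRNAs with any count were mt-Ta (6 and 10), mt-Te (9 and 4), mt-Tw (5 and 3), mt-Tt (1 and 4) and mt-Tm (0 and 1). A gene with 0 counts could lie at up to 0.169 CPM in untreated and 0.177 CPM in treated cells, the levels of 3 counts.

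The nuclear genes whose proteins join the mitochondrially encoded subunits lay on the other side of 1. Of 71 measured nuclear subunit genes of complexes I, III and IV and of ATP synthase, 62 had an interval entirely over 1 and 1 entirely under it, against 20.2% and 16.5% of all measured genes. Among the 48 of them averaging at least 1000 counts the numbers were 46 and 0, against 44.3% and 22.9% of all genes at that depth. For complex I, 7 mitochondrial mRNAs pooled had a ratio of 0.881 (0.870 to 0.893) and 36 nuclear genes pooled 1.17 (1.15 to 1.19). For complex III, mt-Cytb had 0.825 and 9 nuclear genes 1.14 (1.12 to 1.17). For complex IV the values were 0.894 (0.888 to 0.901) and, over 12 nuclear genes, 1.22 (1.20 to 1.24). For ATP synthase they were 0.725 (0.467 to 1.12) and, over 14 nuclear genes, 1.17 (1.15 to 1.19). In complexes I, III and IV the pooled intervals of the mitochondrial and nuclear genes lay on opposite sides of 1. The complex IV value rests on mt-Co1, and without it the ratio was 0.864 (0.713 to 1.05). In complex I, mt-Nd1 and mt-Nd2 did not lie below 1.

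Of these nuclear subunit genes, 2 of complex IV had the interval bounds farthest from 1. They were Cox5a (1775 and 2379 counts, ratio 1.41, 1.32 to 1.50) and Cox6a1 (4981 and 6378, 1.34, 1.29 to 1.40). The genes that follow are examples from the other complexes. Uqcrq of complex III had 1812 and 2130 (1.23, 1.16 to 1.31), and Ndufb9 of complex I had 154 and 220 (1.50, 1.21 to 1.85). Atp5b, which encodes the catalytic beta subunit of ATP synthase, had 9720 and 11021 (1.19, 1.16 to 1.22). Ndufs1, a subunit of complex I that carries iron-sulphur clusters, was the 1 gene below (981 and 827, 0.885, 0.806 to 0.972). The nuclear subunit genes are short, with a median exon length of 1675 bases against 3890 over all measured genes. Their median log2 ratio of 0.24 was 0.16 after the median of each gene's length group was taken off. Their median GC content was 50.2%, against 31.9% to 41.1% in the mitochondrial mRNAs and rRNAs and 49.7% over all measured genes.

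Nuclear genes that copy, cut, stabilise or translate mitochondrial RNA showed few differences as single genes. Pooled per list, the ratio was 1.07 (1.01 to 1.13) for transcription, 0.980 (0.945 to 1.02) for DNA maintenance and 1.04 (1.01 to 1.08) for cutting and modification. It was 1.06 (1.03 to 1.09) for stability and decay, 1.04 (1.01 to 1.08) for translation factors and 1.11 (1.06 to 1.16) for biogenesis regulators. Of 9 measured genes of mitochondrial transcription, Mrpl12, a ribosomal protein that also binds the polymerase, had an interval above 1 (865 and 973 counts, 1.18, 1.08 to 1.30) and 0 had one below. The list's median log2 ratio was -0.08. Of 15 genes that maintain or copy mitochondrial DNA, 2 were above and 1 below (median -0.04). These were the polymerase subunit gene Polg2 (271 and 351, 1.36, 1.16 to 1.60), the single-strand binding protein gene Ssbp1 (278 and 317, 1.20, 1.02 to 1.41) and the nucleoside kinase gene Dguok (629 and 521, 0.869, 0.773 to 0.978).

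Of 29 genes that cut or modify mitochondrial RNA, 3 were above and 3 below (median 0.02), among them the tRNA modifying enzymes Qtrt1 (95 and 129 counts, 1.43, 1.09 to 1.88), Pus1 (498 and 571, 1.20, 1.07 to 1.36) and Cdk5rap1 (123 and 83, 0.708, 0.530 to 0.943). Of 18 genes of RNA stability and decay, 5 were above and 1 below (median 0.01). Slirp, whose product protects mitochondrial mRNAs together with that of Lrpprc, had 1302 and 1504 counts (1.21, 1.13 to 1.31), and the ribonuclease gene Rexo2 had 1188 and 1374 (1.21, 1.12 to 1.31). Of 13 translation factors, 2 were above and 0 below (median 0.03), led by the elongation factor gene Tufm (1156 and 1344, 1.22, 1.13 to 1.32). Of 5 regulators of mitochondrial biogenesis, Esrra was above 1 (1758 and 2156, 1.29, 1.21 to 1.37) and 0 were below (median 0.01). These shares are near or below the 20.2% and 16.5% of all measured genes, apart from 5 of 18 for stability and decay. Of 13 genes for proteins of the outer membrane, import and the matrix, 9 were above and 0 below (median 0.18). Of the 12 averaging at least 1000 counts, 8 were above and 0 below, against 44.3% and 22.9% of all genes at that depth. Among those above were Tomm22 (1037 and 1188, 1.20, 1.11 to 1.31), Vdac1 (2732 and 3007, 1.16, 1.10 to 1.22) and Hspe1 (1217 and 1370, 1.18, 1.09 to 1.28).

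**Figure D4:**
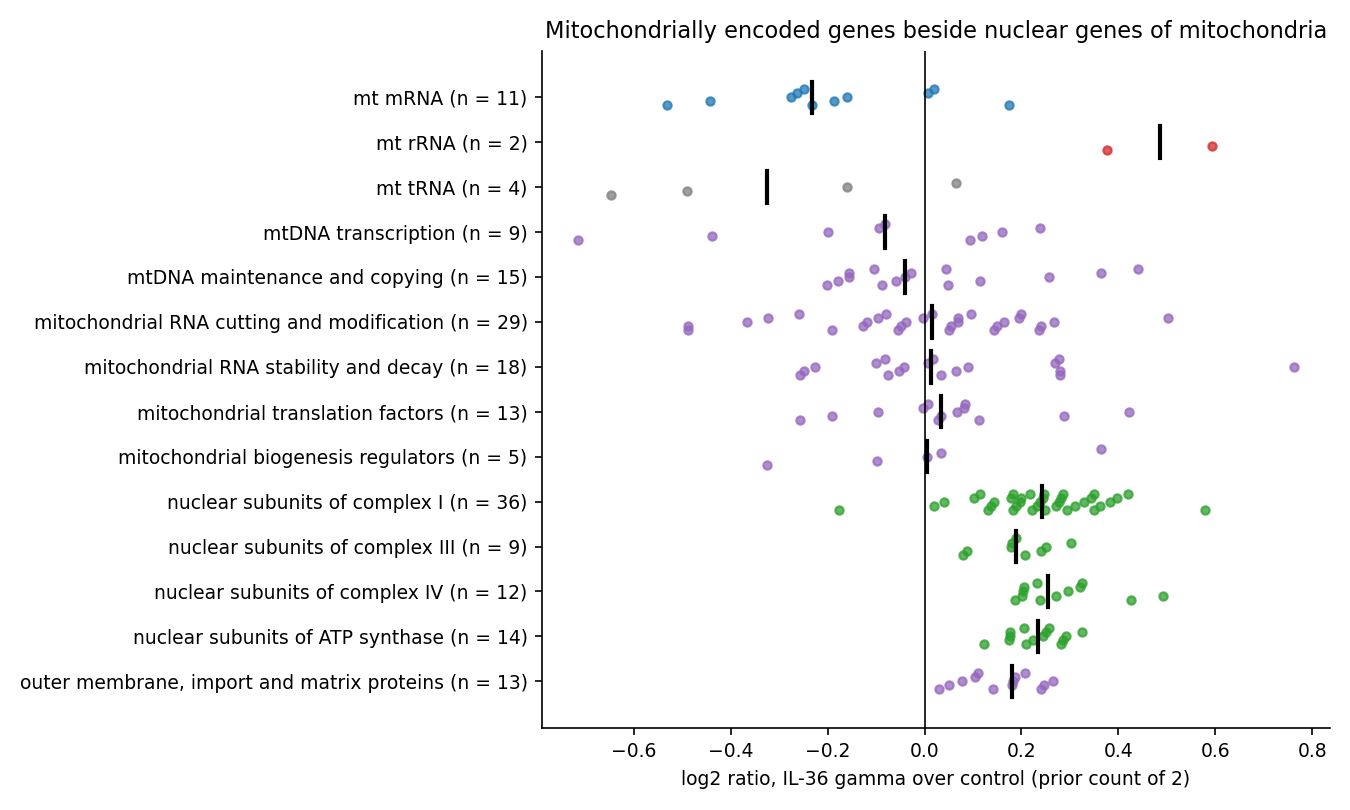
Log2 ratio, IL-36 gamma over control, with a prior count of 2, for each measured gene (point) of the mitochondrially encoded classes and of lists of nuclear genes; black bars are medians. The bar of the mitochondrial mRNAs lies at -0.23, and those of the nuclear subunit lists lie between 0.19 and 0.25.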

How the data were processed

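The authors deposited raw counts per Ensembl gene, 1 table per library, without normalization. As listed per the submitters' processing notes, the tools on mm10 were HTSeq (counting), STAR 2.5.0a (alignment), Trim Galore 0.6.1 and FastQC 0.11.8. Read length, annotation release and HTSeq settings were not given in the sources used here. Rows that name no gene took 55.6% (control) and 55.1% (IL-36 gamma) of all reads and were left out. Most of these were reads assigned to no gene feature, 47.2% (control) and 46.3% (IL-36 gamma) of all reads. Symbols and sequences were taken from GENCODE M21 (also mm10), which held 54409 of the gene IDs. The members and the 20 gene lists were chosen with earlier results of these data known. Of 238 listed names, 2 had no single gene and 1 was matched by a synonym.

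Counts were scaled by TMM (edgeR 4.0.16, R 4.3.3; factors 1.02 and 0.981). With 1 library per group no edgeR test could be run. A ratio, with its exact 95% interval, was formed for genes averaging at least 10 counts, and a log2 ratio with a prior count of 2. All mitochondrially encoded genes are named. Of each nuclear list the rule names up to 3 genes with an interval off 1, ranked by the bound nearest 1, and the gene closest to the median, from which the text takes examples. Ndufs1 was named after its value was seen. Copies were sought as exact windows of 50, 75 and 100 bases on either strand and aligned with biopython 1.88. The interval was run on simulated Poisson libraries, which share its assumption of counting error only and cannot assess culture to culture spread. Alternatives were DESeq2 1.42.0 size factors and others given with their effect. Computations used Python 3.11.15, numpy 2.4.6, pandas 2.3.3, scipy 1.17.1 and statsmodels 0.14.6.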

Additional observations from a re-analysis of the deposited data

How the results depend on the processing

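The direction of the rRNA, mRNA and tRNA ratios held under every scaling and trend tried. The 8 genes whose interval excluded 1 each kept their side, with an interval off 1, under all 9 scalings, trends and thinning. The pooled mRNA ratio of 0.886 was 0.852 by total counts, 0.851 by totals without mitochondrial genes, 0.874 with DESeq2 size factors and 0.875 with TMM on nuclear protein-coding genes. It was 0.796, 0.820 and 0.927 with the trend on expression, length or GC content removed. Without mt-Co1 it was 0.868 and over the mRNAs outside the chromosome 1 copies 0.873, both chosen after seeing the data. The pooled rRNA ratio of 1.39 was 1.34 by total counts with or without mitochondrial genes, 1.33, 1.30 and 1.48 with those 3 trends removed. With the GC trend removed, 2 mRNAs instead of 0 had an interval above 1, mt-Nd1 (1.07) and mt-Nd2 (1.06). By total counts, by totals without mitochondrial genes, and with the expression or the length trend removed, both lay below 1 and the number below 1 was 7 instead of 5. The other filters, interval levels and prior counts changed none of the counts or medians beyond the limits used. The deeper library thinned to the other's total gave 0.886 for the mRNAs. No paired analysis was possible because each group held 1 library, and no library could be left out. Depth limits mt-Co2, mt-Co3, mt-Atp6, mt-Nd3 and the tRNAs, and culture to culture spread was not measured.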

Other observations

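Outside the chromosome 1 block, other nuclear copies of mitochondrial genes had few counts. Gm13340, the chromosome 2 copy of mt-Co1, had 67 counts in untreated and 32 in treated cells, and Gm13341, a copy of mt-Co2 on the same chromosome, had 8 and 13. Gm13339, a copy of part of mt-Nd2 that lies beside them, had 2 and 6. Gm20594, which shares 16 windows of 50 bases with mt-Rnr2, had 0 counts in both libraries, and the copies of mt-Nd5, Gm4076 and Gm11407, each had 1 and 0. With windows of 100 bases in place of 50, the share of windows found in a nuclear copy was 30.8% for mt-Co1, 60.8% for mt-Nd4 and 0% for mt-Nd5, while that of mt-Co2, mt-Atp6, mt-Co3, mt-Nd3 and mt-Nd4l stayed above 97%.

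Small nuclear-encoded RNAs that lack a poly(A) tail received few counts. Some of them have near-identical copies, whose reads the counter would set aside. The 7 such genes found had 16 counts in untreated and 15 in treated cells, of which Rn7sk, the RNA that holds the elongation factor P-TEFb inactive, had 14 and 7. The mitochondrial rRNAs had 5765 and 7661 counts in the same libraries.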
